A study of Homo sapiens with 4 samples.

Results

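BASP1, PLS3 and 8 of their relatives were examined in BT-474 breast cancer cells with and without stable overexpression of neuropilin-1 (NRP-1). BASP1 and PLS3 were chosen by their measured RNA levels, which were higher in the NRP-1 cells, and GAP43, MARCKS, MARCKSL1, PLS1, LCP1, FSCN1, EZR and MSN were added as genes of the same families. These are 10 genes, of which 9 were among the 18882 gene IDs listed in at least 1 library. GAP43 was listed in none. BT-474 is an established human breast cancer line, labelled luminal B-like. The control group held 2 libraries of wild-type BT-474 cells, numbered 1 and 2. The NRP-1 group held 2 libraries of BT-474 NRP-1 cells, numbered 2 and 3 in the labels, in which a pPTuner IRES2 plasmid carried the NRP-1 cDNA. Those cells had been selected with Geneticin after colonies were isolated, and all cells were grown in RPMI-1640 with serum. The sequenced controls carried no plasmid by their labels, so NRP-1, the plasmid, the drug selection and the choice of colonies cannot be told apart. Nothing in the labels says whether the libraries of a group came from separate cultures, so every p-value measures only the spread between these libraries.

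The expected counts, which are RSEM-style estimates of reads per gene, summed to between 8243595 and 8448926 per library, and 3 reads corresponded to between 0.355 and 0.364 CPM, the read count scaled to library size. NRP1 had 7 and 8 reads in the controls and 103 and 62 in the NRP-1 libraries. The 12 luminal markers were all detected, with a summed level between 13979 and 16638 CPM over the 4 libraries. Of 14298 genes tested with edgeR's quasi-likelihood test, 59 were higher and 97 lower at an adjusted p under 0.05. Spread within a group was larger among NRP-1 libraries than among controls. With either NRP-1 library left out the test called 5414 or 4159 genes, whereas with either control left out it called 0 genes, with 782 and 1181 at an unadjusted p under 0.05. The smallest p that an exact two-sided permutation test could reach with 2 libraries per group is 0.33, and the adjusted p-values below are from edgeR's fit over the whole table.

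The genes meet at the actin layer beneath the plasma membrane. BASP1, GAP43, MARCKS and MARCKSL1 are small acidic proteins, anchored to the inner face of the membrane by a lipid and a basic stretch that binds the phosphoinositide PIP2, and protein kinase C regulates several of them. Plastins (PLS1, LCP1 and PLS3, also called fimbrins) and fascin (FSCN1) tie actin filaments into bundles, the plastins through paired actin-binding domains and in a calcium-dependent way. Ezrin (EZR), radixin (RDX) and moesin (MSN), the ERM proteins, link transmembrane proteins to actin once they are unfolded by PIP2 and phosphorylation, and merlin (NF2) is their tumor suppressor relative.

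The promoter sequences of BASP1, PLS3 and MARCKSL1, the 3 members with higher RNA in both NRP-1 libraries and over 50 reads on average, are shown because their RNA differed in the same direction, although MARCKSL1 missed the edgeR threshold. They are the 250 bases before the annotated start, written 5′ to 3′ on the gene's strand, from RefSeq on GRCh38.p14, and capitals mark the GC box GGGCGG or its reverse complement. BASP1 lies at chr5:17216573-17216822 on the plus strand, PLS3 at chrX:115560924-115561173 on the plus strand, and MARCKSL1 at chr1:32336234-32336483 on the minus strand.
BASP1: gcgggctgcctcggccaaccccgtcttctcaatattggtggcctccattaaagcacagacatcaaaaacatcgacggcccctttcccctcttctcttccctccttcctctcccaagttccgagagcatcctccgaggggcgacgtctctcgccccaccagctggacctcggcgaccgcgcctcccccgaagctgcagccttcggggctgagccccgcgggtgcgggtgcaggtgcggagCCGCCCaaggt
PLS3: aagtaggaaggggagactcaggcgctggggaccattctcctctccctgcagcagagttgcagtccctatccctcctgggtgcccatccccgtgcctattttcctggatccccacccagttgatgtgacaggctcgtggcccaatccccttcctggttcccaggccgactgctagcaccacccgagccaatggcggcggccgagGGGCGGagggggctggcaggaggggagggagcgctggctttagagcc
MARCKSL1: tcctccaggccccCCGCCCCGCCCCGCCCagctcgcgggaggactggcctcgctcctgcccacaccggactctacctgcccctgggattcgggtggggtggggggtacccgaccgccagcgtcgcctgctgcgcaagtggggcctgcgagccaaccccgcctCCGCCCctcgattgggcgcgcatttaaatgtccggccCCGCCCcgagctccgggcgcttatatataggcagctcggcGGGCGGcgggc

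The BASP1 window had a GC content of 65.6% and 21 CpG dinucleotides, the PLS3 window 65.2% and 10, and the MARCKSL1 window 74% and 28. Over all 35116 RefSeq promoters of this length the medians were 58% and 11 CpG. The GC box was found 1 time in BASP1, 1 time in PLS3 and 6 times in MARCKSL1. It was present on either strand in 42.6% of all promoters. None of the 3 windows held TATAAA (10.7% of all promoters), the TEAD motif GGAATG (11.9%) or the AP-1 motif TGANTCA (6.57%), each searched on both strands. Only these patterns were searched, and the MARCKSL1 window holds the stretch tatatata, which the search for TATAAA does not count. PLS3 has a second annotated start, whose window had a GC content of 34% with 2 CpG dinucleotides and held none of the 4 motifs. The MARCKS window, on chr6:113857095-113857344, had a GC content of 52.8%, 23 CpG dinucleotides and 1 GC box.

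Reads that match several related genes can be divided among them, so the likeness of those genes is given before their levels. The counts of the 9 listed members and of RDX were whole in every library. In GENCODE v29 coding sequences PLS3 was 70.0% identical to PLS1 and 74.2% to LCP1, and no stretch of 31 bases was shared among the 3 plastins. BASP1 shared 1.46% of its distinct 31-base stretches with other genes, MARCKSL1 0.360% and PLS3 none. MSN shared 10.7%, nearly all with the pseudogene MSNP1, FSCN1 shared 13.1% with FSCN1P1, and RDX shared 13.7%, most of it with a single other gene, so the levels of these 3 genes are less certain. The primer pair that the study designed for PLS3 is shown because its sites differ in sequence between the plastins. The paper shortlisted PLS3 for qPCR, but its text gives no qPCR result for PLS3.
PLS3 forward: tggcattggagggcaaga
PLS3 reverse: gctgccagactaaagctaaagtca

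Both primers were found in 5 of the 10 GENCODE PLS3 transcripts, where they delimit an amplicon of 65 bases. The best position in PLS1 had 3 mismatches to the forward and 7 to the reverse primer, and the best in LCP1 had 3 and 8.

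Among the acidic membrane proteins, BASP1 (gene ID 10409), which is also known as a co-repressor of the transcription factor WT1, had 75 and 66 reads in the controls and 488 and 479 in the NRP-1 libraries. The groups were far apart and the libraries within each group lay close together. Control cells held 8.62 ± 0.853 CPM and NRP-1 cells 56.7 ± 0.801 CPM (each mean ± SD, n = 2). This was a 6.57-fold difference, 2.72 on the log2 scale with a standard error of 0.17, and the 4 pairings of an NRP-1 with a control library gave between 6.09- and 7.15-fold. Since BASP1 was chosen for this difference, it is given as a description without a test. In these bulk samples a larger share of cells with BASP1 RNA and more BASP1 RNA per cell cannot be told apart. In FPKM (fragments per kilobase of transcript, scaled to mapped reads), the mean moved from the 48.4th to the 85.9th percentile of the listed genes.

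BASP1-AS1, an antisense gene that RefSeq places across the start of BASP1, had 23.9, 28.7, 40.8 and 25.0 estimated reads in control 1, control 2, NRP-1 2 and NRP-1 3. The groups overlapped, and its log2 fold change was 0.26 with a standard error of 0.38 (edgeR adjusted p = 0.729). Whether counting used strand is not given in the sources used here, so reads of the overlapping parts cannot be assigned to one strand.

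MARCKSL1 (gene ID 65108), the short relative of MARCKS, had 1535 and 1570 reads in the controls and 2537 and 2686 in the NRP-1 libraries. Both NRP-1 libraries stood above both controls. Its log2 fold change was 0.69 with a standard error of 0.12, a 1.61-fold difference with a 95% interval from 0.41 to 0.97 on the log2 scale, and it missed the edgeR threshold (adjusted p = 0.0561). DESeq2 placed it past the threshold (adjusted p = 0.00233). The log2 fold change stayed between 0.65 and 0.72 with each library left out. MARCKS itself (gene ID 4082), the founding protein kinase C substrate of the family, had 2640, 3163, 3001 and 2851 reads in control 1, control 2, NRP-1 2 and NRP-1 3. The NRP-1 values lay between those of the controls, with a log2 fold change of -0.046, a 95% interval from -0.38 to 0.29 and an edgeR adjusted p of 0.871. GAP43, a growth cone protein of neurons, was listed in none of the 4 libraries and taken as 0, which allows up to 3 reads, or 0.364 CPM, in the smallest library by counting error alone.

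**Figure D1:**
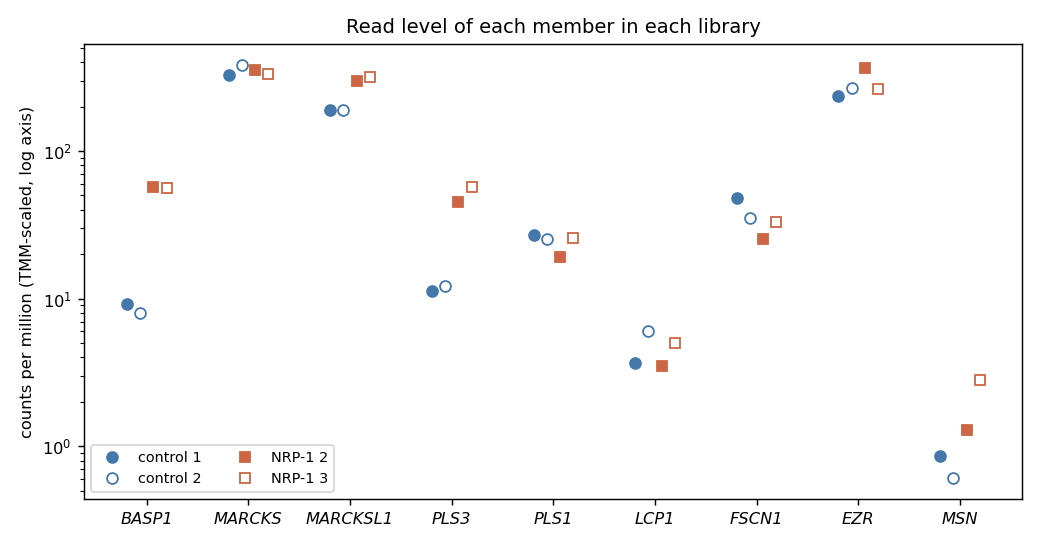
TMM-scaled CPM of 9 members in each library on a log axis, with circles for the 2 controls and squares for the 2 NRP-1 libraries. BASP1 lies between 8.02 and 9.23 CPM in the controls and between 56.2 and 57.3 CPM in the NRP-1 libraries, PLS3 between 11.2 and 12.3 and between 45.1 and 56.8 CPM, whereas MARCKS, PLS1, LCP1 and EZR overlap between groups. GAP43 is at 0 and is not drawn.

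Of the plastins, PLS3 (gene ID 5358), the plastin of solid tissues, had 91 and 101 reads in the controls and 384 and 484 in the NRP-1 libraries. The groups did not overlap. Control cells held 11.7 ± 0.763 CPM and NRP-1 cells 50.9 ± 8.25 CPM (each mean ± SD, n = 2), with a log2 fold change of 2.12 and a standard error of 0.19, or 4.34-fold. The pairings of libraries gave between 3.67- and 5.07-fold. Like BASP1, PLS3 was chosen for this difference and was not tested. The NRP-1 libraries differed from each other by 0.33 on the log2 scale, against a counting error of 0.10.

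PLS1 (gene ID 5357), the plastin of intestinal microvilli, had 219 and 207 reads in the controls and 163 and 218 in the NRP-1 libraries. Its groups overlapped, with a log2 fold change of -0.22, a 95% interval from -0.71 to 0.27 and an edgeR adjusted p of 0.558. LCP1 (gene ID 3936), the plastin of leukocytes, had 30 and 50 reads in the controls and 30 and 43 in the NRP-1 libraries. LCP1 also overlapped, with a log2 fold change of -0.19 (95% interval from -1.12 to 0.74, edgeR adjusted p = 0.806). The control libraries alone differed by 0.72 on the log2 scale, with a counting error of 0.33. Among the 10 leukocyte markers, those at 0 in every library included CD3E and CD14, and the summed level was between 80.6 and 117 CPM, most of it from LYZ and CD68.

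The make-up of the plastins was compared per transcript length, in FPKM. PLS1 held 62.9% and 57.0% of the summed plastin FPKM in the controls and 27.1% and 28.0% in the NRP-1 libraries. PLS3 held 28.7% and 29.6% in the controls and 68.0% and 66.6% in the NRP-1 libraries, so that PLS1 led in both controls and PLS3 in both NRP-1 libraries. LCP1 held 8.43%, 13.5%, 4.86% and 5.40%, in the order control 1, control 2, NRP-1 2 and NRP-1 3. The plastin sum was 11.3 and 11.7 FPKM in the controls and 19.1 and 24.6 FPKM in the NRP-1 libraries. The shares follow from the choice of PLS3 and are a description.

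The acidic family was composed differently. MARCKSL1 held between 57.0% and 65.6% of its summed FPKM in all 4 libraries. BASP1 held 2.41% and 1.97% in the controls and 9.85% and 9.55% in the NRP-1 libraries, and MARCKS held 37.2% and 41.0% against 26.5% and 24.8%. The summed level was 199 and 214 FPKM in the controls and 311 and 313 FPKM in the NRP-1 libraries. MARCKS itself had a mean of 80.8 FPKM in the controls and 80.1 FPKM in the NRP-1 libraries, so its smaller share is of a larger sum. The BASP1 share follows from the choice of BASP1, and these shares are a description.

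**Figure D2:**
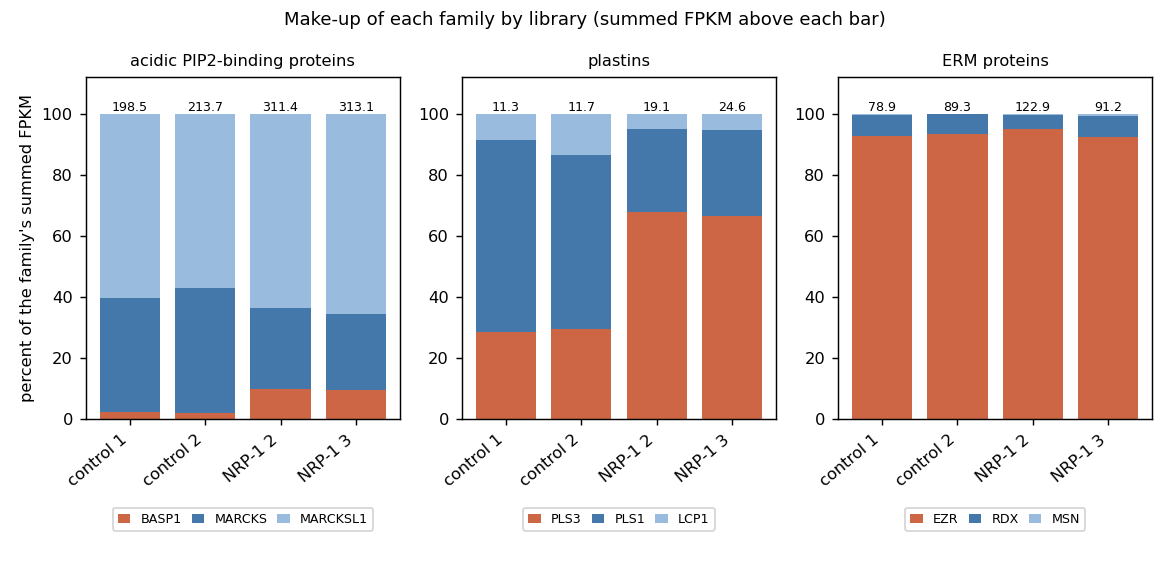
Share of each family's summed FPKM held by its members in each library, in percent, with the summed FPKM printed above each bar. PLS3 grows from 28.7% and 29.6% in the controls to 68.0% and 66.6% in the NRP-1 libraries, and EZR holds between 92.5% and 95.1% of the ERM sum in every library.

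FSCN1 (gene ID 6624), the bundler of filopodia, had 393 and 291 reads in the controls and 215 and 282 in the NRP-1 libraries. Both NRP-1 libraries were below both controls, but the controls differed by 0.45 on the log2 scale. The log2 fold change was -0.52 with a standard error of 0.22, a 95% interval from -1.07 to 0.025 and an edgeR adjusted p of 0.235. It ranged from -0.73 to -0.28 with each library left out.

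Among the ERM genes, EZR (gene ID 7430) had 1907 and 2187 reads in the controls and 3097 and 2252 in the NRP-1 libraries. NRP-1 2 stood above the other 3 libraries, and in CPM NRP-1 3 lay at 264 between the controls at 235 and 266. The fitted difference was 0.33 on the log2 scale (standard error 0.18, edgeR adjusted p = 0.342), and it was 0.069 without NRP-1 2 and 0.54 without NRP-1 3. The NRP-1 libraries differed by 0.46 on the log2 scale against a counting error of 0.040. MSN (gene ID 4478) had 7 and 5 reads in the controls and 11 and 24 in the NRP-1 libraries, and it passed the filter on low counts through the NRP-1 libraries. Its log2 fold change was 1.47 with a standard error of 0.59 (edgeR adjusted p = 0.213), and 0.80 without NRP-1 3. RDX had between 210 and 235 reads in the 4 libraries, with a log2 fold change of 0.023 (95% interval from -0.36 to 0.41, edgeR adjusted p = 0.950). NF2 had 580 and 600 estimated reads in the controls and 635 and 705 in the NRP-1 libraries, with a log2 fold change of 0.12 (95% interval from -0.18 to 0.43, edgeR adjusted p = 0.599). EZR held between 92.5% and 95.1% of the summed ERM FPKM and MSN between 0.168% and 0.778%.

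Of the 8 members added as relatives, 7 were tested, as GAP43 had no reads, and MSN entered through the group in which it was higher. edgeR called 0 of the 7 at an adjusted p under 0.05, beside 1.09% of all tested genes, and 2 had an unadjusted p under 0.05, beside 22.9%. DESeq2 called 1 of the 7, MARCKSL1, beside 6.67% of all tested genes. The groups did not overlap for MARCKSL1, MSN and FSCN1, beside 56.2% of all tested genes that did not overlap.

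**Figure D3:**
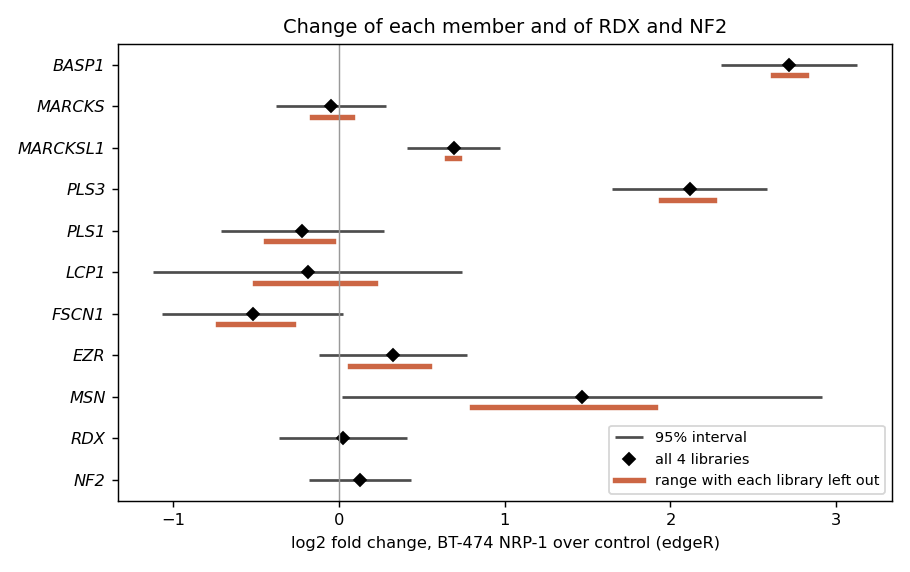
edgeR log2 fold change of 9 members, RDX and NF2, NRP-1 over control, with the 95% interval as a gray line and, for the members, the range with each library left out as an orange line. BASP1 at 2.72 and PLS3 at 2.12 are the largest of those drawn. Both were chosen for this difference, so their rank and intervals are a description and not a test. MARCKSL1 at 0.69 has the narrowest left-out range, from 0.65 to 0.72. The intervals of MARCKS, PLS1, LCP1, FSCN1, EZR, RDX and NF2 include 0.

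The order of the levels, in mean FPKM, was MARCKSL1 (121), MARCKS (80.8), EZR (78.2), FSCN1 (14.6), PLS1 (6.87), RDX (5.69), BASP1 (4.50), PLS3 (3.34), LCP1 (1.26) and MSN (0.18) in control cells. MARCKS and EZR were not separated by their 2 libraries, and the other neighbours in that order did not overlap. In NRP-1 cells it was MARCKSL1 (202), EZR (101), MARCKS (80.1), BASP1 (30.3), PLS3 (14.7), FSCN1 (10.5), PLS1 (6.04), RDX (5.92), LCP1 (1.13) and MSN (0.52), where only PLS1 and RDX overlapped. BASP1 and PLS3 thus stood below FSCN1, PLS1 and RDX in control cells and above them in NRP-1 cells. This change of order follows from the choice of BASP1 and PLS3 for their rise and is a description.

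The other genes of these pathways were taken from 5 lists, with 140 genes, of which 119 were tested. edgeR called 1 of the 119 higher, PALLD, and 0 lower, beside 0.413% and 0.678% of all tested genes, with 39 of the 119 at an unadjusted p under 0.05, beside 22.9%. DESeq2 called 11 higher and 3 lower, beside 2.8% and 3.86% of all tested genes. The median log2 fold change over the 119 genes was 0.12, beside 0.017 over all tested genes. In 49 of them both NRP-1 libraries lay above both controls, beside 27.9% of all tested genes, and in 27 both lay below, beside 28.3%.

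The list of other bundlers and crosslinkers had 23 tested genes with a median log2 fold change of 0.16. PALLD, palladin, a scaffold of actin bundles and focal adhesions, had 102 and 91 reads in the controls and 244 and 298 in the NRP-1 libraries. The groups did not overlap and PALLD rose 2.69-fold (log2 fold change 1.43, standard error 0.20, edgeR adjusted p = 0.0452). That call was lost without a filter on low counts, in limma and with either control left out, with adjusted p-values from 0.0858 to 0.802, and its log2 difference stayed between 1.15 and 1.56 over all settings. ANLN, anillin, which crosslinks actin at the cleavage furrow, had 580 and 769 reads in the controls and 1327 and 2691 in the NRP-1 libraries (log2 fold change 1.52, edgeR adjusted p = 0.0806). EPS8, a capping and bundling protein, had 164 and 173 reads against 280 and 279 (0.67, edgeR adjusted p = 0.0831).

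Among the 18 tested partners and regulators of BASP1 and MARCKS, edgeR and DESeq2 called 0 genes, 4 had an unadjusted p under 0.05 in edgeR, beside 22.9% of all tested genes, and the median log2 fold change was 0.22. The log2 fold change was positive in 16 of the 18, beside 7401 of all 14298 tested genes. Both NRP-1 libraries lay above both controls in 8 and below them in 1, beside 27.9% and 28.3% of all tested genes. PPP3CA, the catalytic subunit of calcineurin, had 328 and 368 reads in the controls and 594 and 452 in the NRP-1 libraries (log2 fold change 0.53, edgeR adjusted p = 0.158). PHB2, a prohibitin, had 1665 and 1513 reads against 1036 and 1247 (-0.54, edgeR adjusted p = 0.107).

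Of the 19 tested ERM relatives and partners, edgeR called 0, 8 had an unadjusted p under 0.05 (beside 22.9% of all tested genes), and DESeq2 called 2 higher and 2 lower (beside 2.8% and 3.86%). MUC1, a transmembrane mucin that ERM proteins bind, had 1577 and 1666 reads in the controls and 732 and 363 in the NRP-1 libraries (log2 fold change -1.62, edgeR adjusted p = 0.0680, DESeq2 adjusted p = 1.1e-05). ICAM1, an adhesion receptor, had 111 and 120 estimated reads against 30.1 and 56.7 (-1.47, edgeR adjusted p = 0.0821). SDC2, a syndecan, had 132 and 166 reads against 286 and 234 (0.74, edgeR adjusted p = 0.109). In each of these genes, named for the size of their change, the groups did not overlap, beside 56.2% of all tested genes. The NRP-1 libraries differed from each other by 1.01 on the log2 scale for MUC1 and 0.91 for ICAM1.

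The membrane skeleton list had 19 tested genes with a median log2 fold change of 0.089. edgeR called 0 of them, and 7 had an unadjusted p under 0.05 (beside 22.9% of all tested genes). DESeq2 called 2 higher and 1 lower (beside 2.8% and 3.86%). The gene called lower had passed the filter on low counts through the controls. SPTAN1, the alpha chain of nonerythroid spectrin, had 2241 and 2466 reads in the controls and 3738 and 4005 in the NRP-1 libraries (log2 fold change 0.66, edgeR adjusted p = 0.0663). ANK3, an ankyrin, had 653 and 639 reads against 1080 and 945 (0.59, edgeR adjusted p = 0.0792). EPB41, protein 4.1R, had 978 and 1011 estimated reads against 750.2 and 723 (-0.49, edgeR adjusted p = 0.0856).

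Of the 40 tested actins and genes of filament turnover, edgeR called 0, 14 had an unadjusted p under 0.05 (beside 22.9% of all tested genes), and DESeq2 called 5 higher and 0 lower (beside 2.8% and 3.86%). The median log2 fold change was 0.099. TMSB10, a thymosin that binds actin monomers, had 3628 and 3420 reads in the controls and 6242 and 5190 in the NRP-1 libraries (log2 fold change 0.64, edgeR adjusted p = 0.0804). TPM3, a tropomyosin, had 3217 and 3287 estimated reads against 4569 and 5919 (0.63, edgeR adjusted p = 0.0959). FMNL3, a formin, had 216 and 255 reads against 99 and 159 (-0.93, edgeR adjusted p = 0.117).

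**Figure D4:**
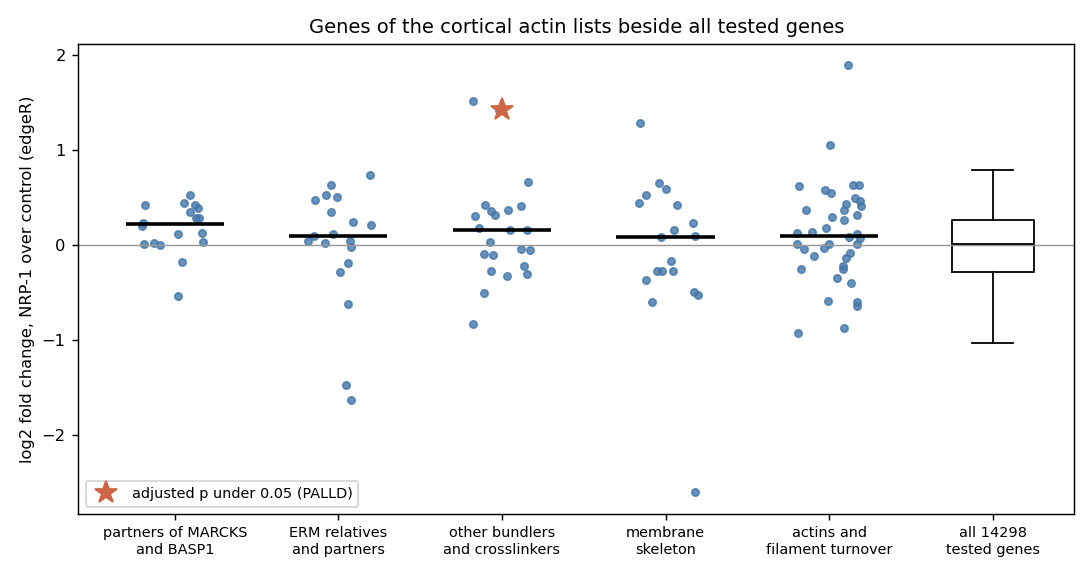
edgeR log2 fold changes of the tested genes of the 5 lists, 1 point per gene, with the list median as a black bar and, at the right, a box of all 14298 tested genes (median, quartiles, whiskers from the 5th to the 95th percentile). The list medians lie between 0.089 and 0.22, and PALLD, the star at 1.43, is the single gene at an adjusted p under 0.05.

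The genes whose profile over the 4 libraries was closest to those of BASP1 and PLS3 were found by the root mean square distance of log2 CPM, each profile centred on its own mean, among 11529 tested genes with at least 50 reads on average. Closest to BASP1 was CLCA2 (distance 0.152), with 19 and 19 reads in the controls and 152 and 184 in the NRP-1 libraries. TUBA1A (0.333), an alpha-tubulin whose reads are shared with near-identical tubulin genes, PLS3 (0.340), the readthrough gene SLMO2-ATP5E (0.360) and HMGCS1 (0.360) followed. Closest to PLS3 was ACAT2 (distance 0.105), with 166 and 178 reads against 571 and 833, then CTNND2 (0.164), TP53I3 (0.225), HMGCS1 (0.247) and MVD (0.255). BASP1 ranked number 23 in likeness to PLS3. These distances rest on 4 libraries in 2 groups and are a description.

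Markers of other cell types were set beside these levels. The 12 basal or mesenchymal markers summed to 46.5 and 50.3 CPM in the controls and 78.2 and 64.1 CPM in the NRP-1 libraries, with KRT14 at 0 in all 4. Of the 8 tested, edgeR called 0, beside 1.09% of all tested genes. Both NRP-1 libraries lay above both controls for VIM and ZEB1 and below them for CAV2 and FN1, and the other 4 overlapped. Vimentin (VIM), the intermediate filament protein of mesenchymal cells, had 69 and 48 reads in the controls and 371 and 147 in the NRP-1 libraries (log2 fold change 2.08, edgeR adjusted p = 0.0821, DESeq2 adjusted p = 0.000328). Without VIM the basal sum was 38.1 and 44.5 CPM in the controls and 34.6 and 46.8 CPM in the NRP-1 libraries, so the groups overlapped. NRP-1 2 had the highest VIM, whereas PLS3 was higher in NRP-1 3. The 9 fibroblast markers summed to between 160 and 214 CPM, almost all from COL1A1, with PDGFRA, PDGFRB, THY1, DCN and FAP at 0. The 7 neuron markers summed to between 1.82 and 5.05 CPM, with NEFL at 0, and without SYP to 1.11 and 0.608 CPM in the controls and 0.822 and 1.88 CPM in the NRP-1 libraries. The summed luminal, basal and neuron markers were higher in both NRP-1 libraries, and the fibroblast and leukocyte sums were lower in both. The single markers were mixed. Of the 12 luminal markers, 6 lay above both controls in both NRP-1 libraries, 2 below, and 4 overlapped. Of the tested leukocyte markers, 1 lay above, 2 below, and 2 overlapped. These counts and those of the basal markers stand beside 27.9% of all tested genes above and 28.3% below. CD68 alone had 39.4 and 34.2 CPM in the controls and 12.6 and 10.5 CPM in the NRP-1 libraries. The part of these marker sums in the differences of BASP1 and PLS3 was not tested. Of the leukocyte markers edgeR called 1, CD68, beside 1.09% of all tested genes. CD68 had 320 and 281 estimated reads in the controls and 107 and 89.4 in the NRP-1 libraries (log2 fold change -1.67, edgeR adjusted p = 0.0423).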

How the data were processed

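Poly(A) RNA was sequenced in 2 libraries per group. The files that the authors deposited give, per library, an expected count per gene, not normalized and not always whole (32.4% to 32.9% of values were not whole), and an FPKM value, normalized for length and mapped reads. The submitters' processing notes name HISAT2 2.0.1, Bowtie2 2.2.5 and RSEM with the builds GRCh38 and hg19, without their roles, so no coordinates were taken from the files. A table of the authors' comparison (group mean FPKM, log2 ratio and score) was not used.

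Rounded expected counts entered edgeR 4.0.16, run in R 4.3.3 (filterByExpr, TMM, quasi-likelihood test, group as the only term, Benjamini-Hochberg adjustment). TMM factors lay between 0.986 and 1.014. The CPM values are TMM-scaled. The counts of all 9 listed members were whole. Alternatives were DESeq2 1.42.0, limma 3.58.1 with a pseudocount of 1 or 0.1 on log2 FPKM (mean FPKM 0.5 or higher, or unfiltered), omission of TMM, omission of the count filter and omission of each library in turn. The tests were checked on simulated data. Symbols of 99.4% of the gene IDs came from RefSeq. Motifs, 31-base stretches and identities were computed from RefSeq and GENCODE v29.

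The members and the lists were chosen with earlier results of these data known. The named genes are the members, NRP1, RDX, NF2, list genes past an adjusted p of 0.05 or, to reach 3 a list, those of largest change with at least 50 reads on average, and the 5 genes nearest to BASP1 and to PLS3. Some genes that this rule names are not reported here. BASP1-AS1, the cell type markers named one by one and the genes first named in the closing section were chosen after their values were seen.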

Additional observations from a re-analysis of the deposited data

How the results depend on the processing

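Genes higher in NRP-1 cells numbered 59, and 401 in DESeq2, 3 in limma on log2(FPKM + 1), 1 on log2(FPKM + 0.1), 0 in limma without its filter, 0 in edgeR without a filter, and between 0 and 2718 with each library left out. Genes lower numbered 97, and 552, 4, 2, 0, 0 and between 0 and 2696 in the same order. Where edgeR without a filter and limma without its filter called 0 genes, 3297 and 3463 had an unadjusted p under 0.05. Without TMM the numbers were 63 and 91. Of the 7 tested relatives, DESeq2 called 1, beside 6.67% of all tested genes. List genes called numbered 1, and 14 in DESeq2, 0 in edgeR without a filter and in the 3 limma fits, and between 0 and 55 with each library left out. The cause of these differences was not tested.

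The sign of the log2 fold change of each tested member held in every fit with 4 libraries that included it, which left MSN out of the limma fits with a filter. With each library left out, MARCKS ranged from -0.16 to 0.081 and LCP1 from -0.50 to 0.21, changing sign without control 2 and, for LCP1 at 0.036, also without NRP-1 2. MARCKSL1 passed the threshold in DESeq2, beside 6.67% of all tested genes. Without NRP-1 3 the log2 fold change of EZR was 0.54 and that of FSCN1 was -0.73. Without NRP-1 2 that of MSN was 1.91. BASP1 ranged from 2.51 to 2.82 and PLS3 from 1.85 to 2.26 over all settings. All 20 family shares computed from counts per base stayed within 1 SD of those from FPKM, with GAP43 at 0 in both. That outcome was nearly fixed in advance, because FPKM is itself a count scaled to length. Adding the reads of pseudogenes to the members could not be run, since no member's pseudogene was listed.

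No paired analysis was possible because the groups share only the number 2 in their labels. A library left out leaves its group with 1 sample, which is then assumed to vary like the other group. LCP1 and MSN had 50 reads or fewer in each library.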

Other observations

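Some list genes with under 50 reads on average, chosen here after their values were seen, had larger differences than the genes named in the text for their lists. ANK1, the ankyrin first described in red blood cells, had 38 and 33 reads in the controls and 5 and 7 in the NRP-1 libraries. Its log2 fold change was -2.60 (standard error 0.42, edgeR adjusted p = 0.0552, DESeq2 adjusted p = 0.0156). ANK1 passed the filter on low counts through the controls, the group in which it was higher. CFL2, the muscle form of the filament-severing protein cofilin, had 10 and 18 reads in the controls and 70 and 39 in the NRP-1 libraries, with a log2 fold change of 1.89 (standard error 0.47, edgeR adjusted p = 0.0931, DESeq2 adjusted p = 0.0471). CFL1, the cofilin of most cells, was also chosen after its values were seen and is given only for comparison with CFL2. It had neither low counts nor a larger difference than the genes named for its list. CFL1 had 6264 and 6305 reads in the controls and 9006 and 10190 in the NRP-1 libraries (log2 fold change 0.55, edgeR adjusted p = 0.0868, DESeq2 adjusted p = 0.0221). EPB41L2, a relative of protein 4.1R, had 9 and 16 reads in the controls and 25 and 39 in the NRP-1 libraries (log2 fold change 1.29, edgeR adjusted p = 0.175). It passed the filter on low counts through the NRP-1 libraries, the group in which it was higher. WASF1, an activator of branched actin assembly, had 25 and 16 reads against 36 and 53 (1.05, edgeR adjusted p = 0.188). In all 5 genes the groups did not overlap, beside 56.2% of all tested genes that did not overlap.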
